A study of Mus musculus with 2 samples.

Results

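Transcripts of 8 genes of the interleukin-1 and inflammasome axis, Il1b, Il1a, Il1rn, Il18, Nlrp3, Casp1, Cxcl2 and Pycard, were followed across hepatic immune cells. The genes were chosen by name for their roles, with earlier results of these data known, so counts of them beside all genes are descriptions. All 8 are among the 13528 genes of the deposited table of unique molecular identifier (UMI) counts, in which each UMI stands for 1 captured RNA molecule. Their levels were read in the cells with the deposited myeloid names Macro, Mono, Neu, bas and pDC (458 cells in TG and 771 in WT) against the cells with all other names, called lymphocytes here (4189 in TG and 6511 in WT). The name "other" is counted among the latter, although cluster 26 (32 TG and 14 WT cells) was rich in immunoglobulin transcripts and cluster 28 (6 and 15 cells) in Ccr7 and Fscn1.

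The cells were CD45+ mononuclear cells prepared from livers of mice on the C57BL/6 strain. The sample labels give an age of 10 weeks, whereas the authors' methods give a slightly younger age for this preparation. The mice called TG express the dnTGFβRII transgene, in which the mouse CD4 promoter drives a dominant negative form of the human type II TGF-β receptor, so T cells are its intended site. WT mice have no transgene. The 4647 TG cells were sequenced in a pool with cells of IFN-γ ARE-Del-/- mice, and the 7282 WT cells in a second pool with cells of P40-/-IL-2Ra-/- mice. How many mice stand behind each genotype is not given in the sources used here. There is thus 1 library per genotype, genotype and library cannot be told apart, and no test between genotypes was possible. The named cells held 18498477 UMIs in TG and 22216379 in WT, with a median of 3298 and 2653.5 UMIs per cell. The 2 library files share 267 cell numbers, and 36 numbers occur among the named cells of both libraries.

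IL-1β and IL-18 are made as precursors that caspase-1 cleaves after a sensor such as NLRP3 joins the adaptor ASC, encoded by Pycard, into an inflammasome. IL-1α signals through the same receptor as IL-1β, and the antagonist encoded by Il1rn occupies that receptor without signalling. Cxcl2 encodes a chemokine that draws neutrophils through the receptor CXCR2, and Il1b, Nlrp3 and Cxcl2 are typical targets of NF-κB. In liver these genes are best known from neutrophils, monocytes and Kupffer cells, the resident macrophages.

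In the mouse genome (GRCm38, GENCODE annotation, all protein coding), Il1a and Il1b are close neighbours on the same strand and the other genes lie apart. Il1b (chr2:129364570-129371139, minus strand), Il1a (chr2:129299610-129309972, minus strand) and Il1rn (chr2:24336853-24351494, plus strand) share chromosome 2. Il18 (chr9:50554827-50581840, plus strand) and Casp1 (chr9:5298517-5307265, plus strand) share chromosome 9. Nlrp3 is at chr11:59541568-59566956 on the plus strand, Cxcl2 at chr5:90903871-90905938 on the plus strand and Pycard at chr7:127989708-127993867 on the minus strand. The 250 bases before the RefSeq start (GRCm38.p6) are shown for Il1b, Cxcl2 and the upstream start of Nlrp3, 3 genes that were highest in the same cluster. Capitals mark a TATAAA box on the gene's strand or a match to the κB consensus, the binding motif of NF-κB, on either strand.
Il1b, chr2:129371140-129371389, minus strand: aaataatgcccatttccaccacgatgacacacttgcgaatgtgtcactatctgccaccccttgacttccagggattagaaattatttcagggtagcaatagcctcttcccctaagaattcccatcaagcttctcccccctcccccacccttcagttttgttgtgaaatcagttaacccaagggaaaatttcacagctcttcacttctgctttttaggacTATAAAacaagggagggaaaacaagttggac
Cxcl2, chr5:90903649-90903898, plus strand: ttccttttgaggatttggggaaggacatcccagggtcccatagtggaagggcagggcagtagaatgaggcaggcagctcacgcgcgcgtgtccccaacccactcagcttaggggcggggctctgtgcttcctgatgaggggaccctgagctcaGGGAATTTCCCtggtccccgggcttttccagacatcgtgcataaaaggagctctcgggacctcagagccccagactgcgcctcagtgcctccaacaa
Nlrp3, chr11:59541319-59541568, plus strand: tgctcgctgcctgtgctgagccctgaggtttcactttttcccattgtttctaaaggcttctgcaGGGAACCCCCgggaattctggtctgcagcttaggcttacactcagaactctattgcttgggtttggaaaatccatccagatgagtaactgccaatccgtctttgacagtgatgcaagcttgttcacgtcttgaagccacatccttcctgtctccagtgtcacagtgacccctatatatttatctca
The κB consensus was found in the window of Cxcl2 from base -97 and, 1 base on, on the other strand, and in that of Nlrp3 from base -186 on both strands, but not in those of Il1b, Il1a, Il1rn, Il18, Casp1 or Pycard. Over 32851 promoter windows of this length, 7.25% held it. TATAAA stood at base -31 of Il1b and base -32 of Il1a, and 7.59% of all windows held it. These are matches of letters only.

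Before the levels are given, the deposited names were set against marker genes, and some did not hold. Cluster 5, named Mono, had all 10 neutrophil markers, with S100a8 at 21386 CPM (UMI counts scaled to a total of 1000000) in TG and 10788 CPM in WT, Csf3r at 2862 and 2960 and Cxcr2 at 2715 and 3094. Of the monocyte markers there, F13a1 was at 0 in both libraries and Ccr2 at 21.7 and 40.2 CPM. Their summed level was 980 CPM in TG and 595 in WT, against 68324 and 48236 CPM for the neutrophil list. Cluster 24, named Neu, was led by Ltf, Camp and Ngp, genes of neutrophil granules, with Ngp at 40073 and 38117 CPM but Csf3r at 261 and 261. The cells are therefore called by cluster number. An antibody to Ly6G gave 0 to 2 counts in each myeloid cluster of a library and so could not be set beside the RNA of clusters 5 and 24. Other antibodies did bind: CD49b took 10.2% of antibody counts in TG and 9.52% in WT in cluster 25, and CD45R took 15% and 13.9% in cluster 14.

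The name Macro covers 3 clusters. Cluster 15 (89 TG and 158 WT cells) had Csf1r at 861 and 596 CPM, Ccr2 at 552 and 652 CPM and Ace at 651 and 256 CPM. C1qa was at 41.2 CPM in WT cluster 15. In TG the table lists C1qa, like 5 other macrophage markers and Il1a, at 0 in all cells, so these genes say nothing of TG. Cluster 22 (20 and 80 cells) was led by Xcr1, a marker of conventional dendritic cells, at 448 and 512 CPM. Cluster 27 was found in WT only (23 cells) and had all 9 macrophage markers, among them C1qa at 2046, Adgre1 at 1017 and Vsig4 at 386 CPM. Its top 10 genes by fold also held Pf4, a marker of platelets, at 1840 CPM. Itga2b, the other platelet marker measured, was at 0 there, and Pf4 is listed at 0 in all TG cells. In cluster 25 (bas) and cluster 14 (pDC) all 10 basophil and all 10 plasmacytoid dendritic cell markers of the lists were found in both libraries.

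The genes differed in how far they set myeloid cells apart. Il1b, Il1rn, Nlrp3 and Cxcl2 were over 80-fold higher in myeloid cells than in lymphocytes of either library, whereas Pycard and, in TG, Casp1 were at like levels in both or higher in lymphocytes. Il18 lay between, with a log2 ratio of myeloid cells to lymphocytes of 0.93 in TG and 2.5 in WT. In TG, 4 of the 7 genes with at least 10 UMIs were at least 2-fold higher in myeloid cells, against 15.3% of the 12852 genes with that many, and none was 2-fold lower, against 25.8%. The gene not counted there, Il1a, is listed at 0 in TG, although all 12 of its UMIs in the library file lay in myeloid cells, so the counts of TG and WT are not alike in what they cover. In WT, 7 of the 8 were 2-fold higher against a background of 16.7%, and none was 2-fold lower against 17.2%. The median log2 ratio over the 8 genes was 4.69 in TG and 6.5 in WT, where that over all genes was -0.36 and -0.19. The TG value is lowered by the Il1a listed at 0: with the counts of the library files it was 6.48.

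**Figure D1:**
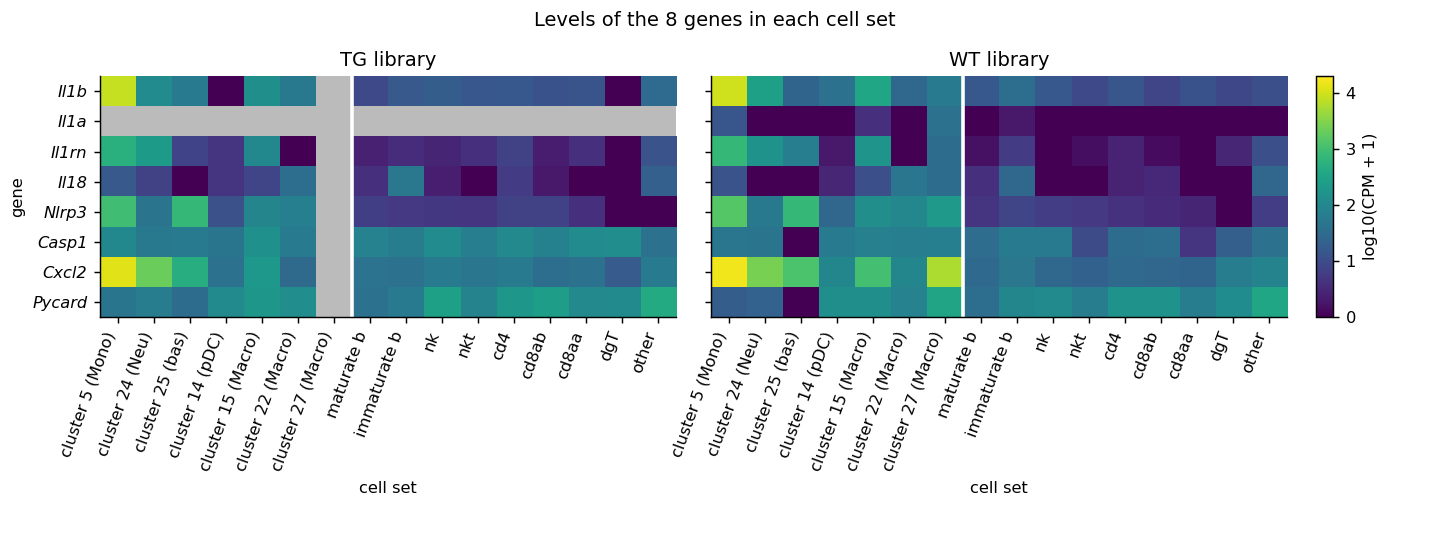
Level of each gene (rows, log10 of CPM plus 1) in each cell set (columns) of the TG and WT libraries; a white line divides myeloid clusters from other cells, and grey marks values not shown (cluster 27, absent from TG, and Il1a, listed at 0 in TG). Il1b and Cxcl2 are brightest in cluster 5 of both libraries, whereas Casp1 and Pycard are spread over myeloid cells and lymphocytes.

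Il1b was nearly confined to cluster 5. It was also first by fold among the genes of that cluster, which the authors made from these same data. Of all its UMIs in named cells, 93.9% in TG and 90.2% in WT lay in that cluster. Its level there was 8474 CPM in TG (95% Poisson interval 8242 to 8710, 5069 UMIs in 204 cells) and 9615 CPM in WT (9351 to 9885, 5025 UMIs in 258 cells). The next highest set was cluster 15 with 140 CPM (107 to 180) in TG and 344 CPM (302 to 391) in WT. Cluster 24 had 119 CPM (84.9 to 162) and 272 CPM (176 to 402), which overlapped cluster 15 in either library. All 25 UMIs of WT cluster 24 lay in 3 of its 17 cells. Intervals here and below cover counting error only.

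In single cells of cluster 5, Il1b was found in 96.6% of TG cells (exact 95% interval 93.1 to 98.6) and 98.1% of WT cells (95.5 to 99.4), or 93.1% and 96.5% after each cell was thinned to 1000 UMIs, a depth that every cell reached. Its median was 87.3 and 96.4 UMIs per 10000 of the cell, with middle values of 55.6 to 129.5 and 56.1 to 143.8 from the lower to the upper quartile. Mature B cells (deposited name maturate b), which should lack the gene, gave 7.74 and 14.2 CPM and a thinned share of 1.12% and 1.20%, with a median depth of 2923 and 2044.5 UMIs against 2614.5 and 1769.5 in cluster 5. Lymphocytes as a whole stood at 12.5 CPM in TG and 11.6 in WT. Set against mature B cells, TG nk cells (17.5 CPM), TG cells named other (31.4 CPM) and WT immature B cells (34.4 CPM) were higher beyond the intervals. WT nkt cells (8.03 CPM) and WT cd8ab cells (6.85 CPM) were lower. Cluster 14 had no Il1b UMI in its 46 TG cells, which allows up to 10.7 CPM, and 42 UMIs in WT, of which 92.9% came from 3 cells.

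Cxcl2 was also highest in cluster 5, but it reached further cells. It stood at 12752 CPM (12467 to 13041) in TG and 16119 CPM (15776 to 16467) in WT. Of the clusters found in both libraries, cluster 24 followed with 2082 CPM (1931 to 2242) and 2569 CPM (2251 to 2918). Cluster 25 had 471 CPM (369 to 591) and 1202 CPM (898 to 1576), of which 3 cells held 75.7% and 69.2%. In the WT cluster 27, Cxcl2 was at 5798 CPM (5425 to 6189) in 19 of 23 cells, 2.26 times its level in cluster 24 of that library, while Il1b there came from 1 cell. Cluster 27 also held Cxcl1, another CXCR2 ligand, at 2027 CPM.

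**Figure D2:**
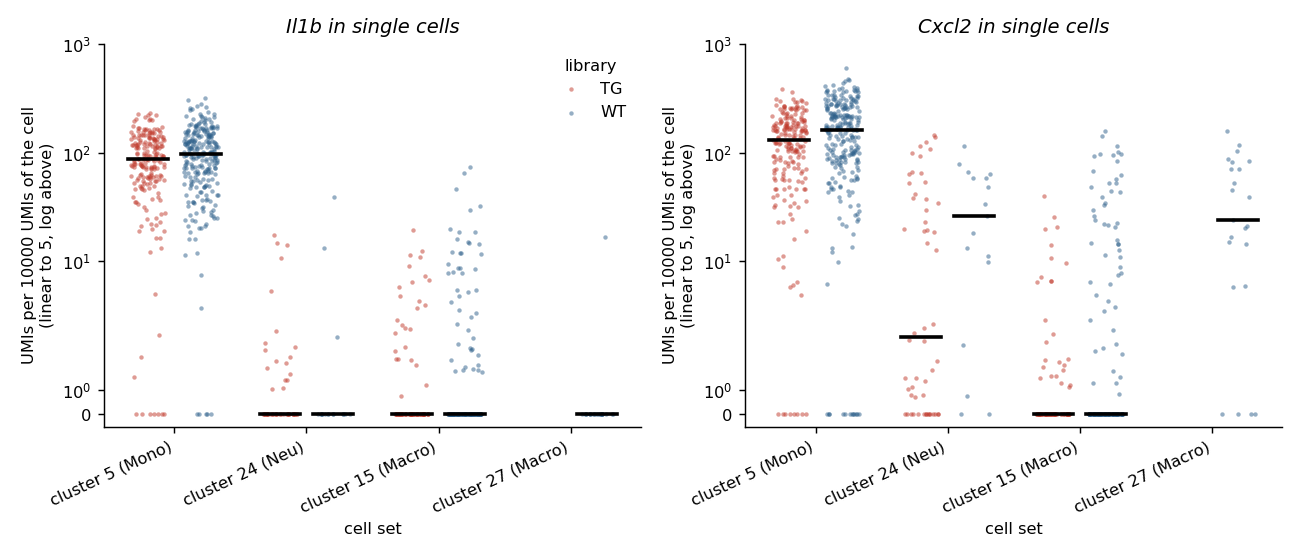
UMIs of Il1b (left) and Cxcl2 (right) per 10000 UMIs of each cell (linear to 5, log above) in 4 clusters; each point is a cell, bars are medians, red is TG and blue WT. Cells of cluster 5 lie near 90 for Il1b, the other medians are at 0, and Cxcl2 is also seen in clusters 24 and 27.

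Within cluster 5 both genes were found together. Of the 197 TG cells with Il1b, 97.5% also had Cxcl2, and of the 253 WT cells 96.4%. The rank correlation of their per-cell fractions was 0.22 in both libraries, over 204 and 258 cells that share a library, so nearly every cell held both but their amounts were only loosely related. In cluster 24 Cxcl2 was found without Il1b, in 24 of the 36 TG cells that had no Il1b UMI and in 12 of 14 in WT. Some of these cells held few Cxcl2 UMIs, and over all cells of cluster 24 the median was 2 in TG and 10 in WT. Mature B cells had Cxcl2 at 42.9 and 28.7 CPM, and their share of cells was not set beside these counts.

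Nlrp3, the sensor, had its own order. Cluster 5 came first with 971 CPM (894 to 1054) in TG and 1473 CPM (1371 to 1581) in WT, and cluster 25 second with 718 CPM (592 to 864) and 740 CPM (506 to 1044). The log2 ratio of cluster 5 to cluster 25 was 0.43 (0.14 to 0.74) in TG and 0.99 (0.48 to 1.55) in WT. Nlrp3 was found in 28 of the 45 TG cells and 11 of the 16 WT cells of cluster 25, where Il1b had 9 UMIs and 1 UMI. The WT cluster 27 had 206 CPM (141 to 291), cluster 15 had 90.4 and 134 CPM and cluster 22 had 70.7 and 95.6 CPM. Cluster 24 had 44.6 and 54.4 CPM, and lymphocytes 4.78 and 3.66 CPM.

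Il1rn, the antagonist, was at 540 CPM (483 to 602) in TG and 721 CPM (650 to 798) in WT in cluster 5. Cluster 24 had 220 CPM (173 to 276) and 152 CPM (83.3 to 256), and cluster 15 had 99.5 CPM (72.3 to 134) and 165 CPM (136 to 198). The latter pair overlapped in WT. In TG cluster 15, 3 cells held 90.9% of its UMIs. No Il1rn UMI was found in cluster 22 of either library, which allows at most 17.7 CPM (TG) and 5.31 CPM (WT).

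The balance of antagonist to agonist differed between clusters. There were 0.0637 Il1rn UMIs per Il1b UMI (0.0568 to 0.0713) in TG cluster 5 and 0.0750 (0.0674 to 0.0833) in WT. In cluster 24 the ratio was 1.85 (1.24 to 2.79) in TG and 0.560 (0.269 to 1.12) in WT, and in cluster 15 it was 0.710 (0.471 to 1.06) and 0.479 (0.379 to 0.602). Cluster 5 thus lay below clusters 24 and 15 in either library, beyond the intervals, but some of these values rest on few cells. The WT value of cluster 24 rests on 3 cells that held all its Il1b UMIs, and that of TG cluster 15 on the 3 cells that held 90.9% of its Il1rn UMIs, and only 6 of its 89 cells had any. Cluster 22 had no Il1rn UMI beside 9 and 15 of Il1b, and WT cluster 14 had 1 beside 42, and their intervals include the values of cluster 5.

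**Figure D3:**
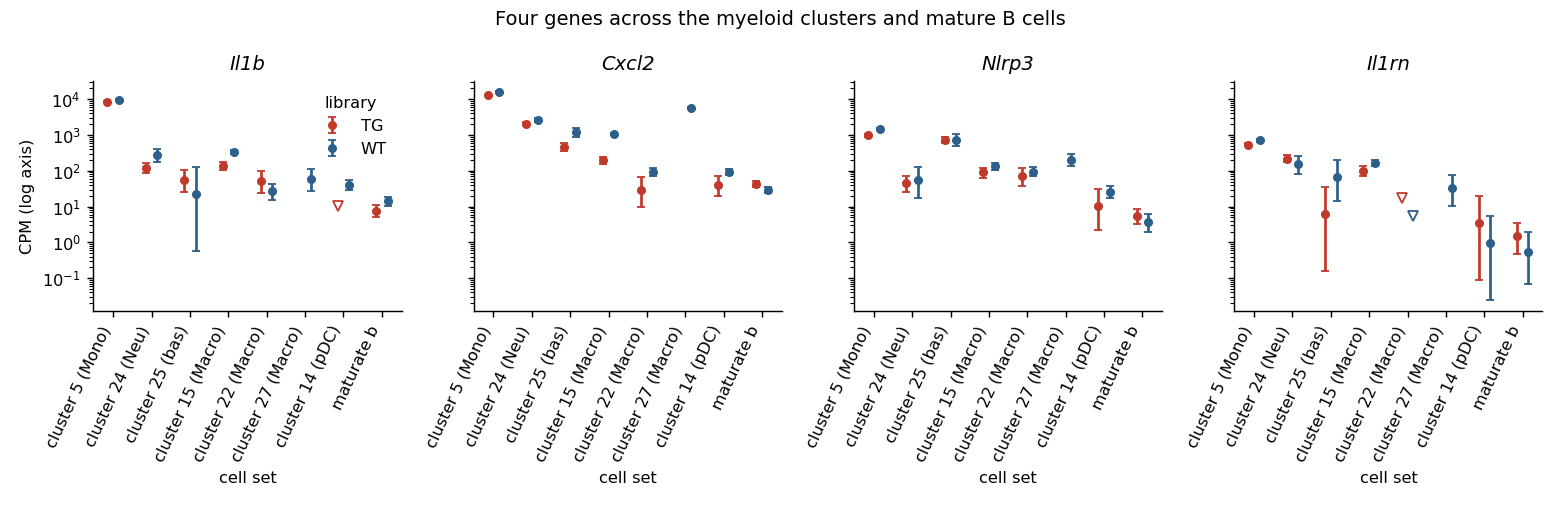
CPM (log axis) of Il1b, Cxcl2, Nlrp3 and Il1rn in the 7 myeloid clusters and in mature B cells; points are the TG (red) and WT (blue) libraries, bars are 95% Poisson intervals, and open triangles are the limit that a count of 0 allows. Cluster 5 is highest for each gene, cluster 25 stands second for Nlrp3, and cluster 27 stands second for Cxcl2 in WT.

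Il1a was rare. WT held 16 UMIs in 12 cells, of which 7 lay in cluster 5 (13.4 CPM, 5.39 to 27.6) and 6 in cluster 27 (38.6 CPM, 14.2 to 84). In TG the deposited table lists it at 0, but the library file holds 12 UMIs in the same cells, 6 in cluster 5 and 6 in 1 cell of cluster 15, so no TG to WT ratio is given for it.

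Il18 was low in all sets and was not led by the granule or S100a8-rich clusters. In TG, immature B cells came first with 51.6 CPM (39.6 to 66.0) and cluster 22 second with 35.3 CPM (13 to 76.9). In WT, cluster 22 came first with 47.8 CPM (31.5 to 69.6), followed by cluster 27 with 32.2 CPM (10.4 to 75.1) and immature B cells with 26.5 CPM (17.5 to 38.6). These neighbours overlapped. Mature B cells had 2.98 and 2.78 CPM. In TG, 63 of the 113 Il18 UMIs lay in 41 of 193 immature B cells. Cluster 5 had 9 UMIs in TG and 6 in WT.

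Casp1, the protease, and Pycard, the adaptor, were broad. Casp1 was at 102 CPM (78.0 to 131) in TG cluster 5 and 47.8 CPM (31.0 to 70.6) in WT, and in cluster 15 it was at 142 CPM (109 to 182) and 75 CPM (55.9 to 98.7), in WT overlapping clusters 22, 27 and 14. Lymphocytes had 85.0 CPM (80.6 to 89.6) in TG and 27.2 CPM (24.9 to 29.7) in WT. The log2 ratio of myeloid cells to lymphocytes was 0.04 (-0.19 to 0.27) in TG and 1.16 (0.91 to 1.40) in WT. Cluster 5, the richest in Il1b and Nlrp3, was poor in Pycard, with 46.8 CPM (31.1 to 67.6) in TG and 17.2 CPM (7.87 to 32.7) in WT. Cluster 15 had 190 CPM (151 to 235) and 138 CPM (112 to 169), and the WT cluster 27 had 322 CPM (239 to 424) in 17 of 23 cells. Lymphocytes had 171 CPM in TG and 92.1 in WT, and the log2 ratio of myeloid cells to lymphocytes was -0.83 (-1.05 to -0.62) and 0.26 (0.09 to 0.43). Among the cells counted as lymphocytes, those named other were highest in Pycard, with 422 CPM (357 to 496) in TG and 337 CPM (261 to 429) in WT. These include cluster 28, where markers of conventional dendritic cells summed to 2695 CPM in TG and 3373 in WT. In cluster 22 they summed to 1608 and 1947 CPM.

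TG and WT were next compared within clusters. In cluster 5 the 4 myeloid genes were lower in TG. The log2 ratio of TG to WT was -0.18 (-0.24 to -0.13) for Il1b, -0.34 (-0.38 to -0.29) for Cxcl2, -0.42 (-0.64 to -0.20) for Il1rn and -0.60 (-0.76 to -0.44) for Nlrp3, so that all 4 intervals lay below 0 but none of the ratios reached 2-fold. Casp1 (1.09, 0.40 to 1.83) and Pycard (1.44, 0.32 to 2.71) were the 2 of 7 genes past 2-fold, both higher in TG, against 16.1% of genes past 2-fold in either direction in that cluster. For Pycard, 67.9% of the 28 TG UMIs lay in 3 cells. Under alternatives the Pycard ratio lay between 1.18 and 2.74, the latter beyond its interval. Neutrophil markers summed to 68324 CPM in TG and 48236 CPM in WT in cluster 5 and monocyte markers to 980 and 595 CPM. The part of these markers in the ratios was not tested. B-cell markers summed to 329 and 197 CPM in cluster 5 and T-cell markers to 403 and 647 CPM. When cells with at least 2 UMIs of B, T or NK markers were left out, 66 of 204 in TG and 40 of 258 in WT, the Casp1 ratio was 0.42, and it was 0.58 when the level of mature B cells, itself higher in TG, was subtracted.

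The pooled myeloid cells gave the opposite sign for Il1b. Over all myeloid cells it was higher in TG (2614 against 1722 CPM, log2 ratio 0.60, 0.55 to 0.66), while cluster 5 made up 204 of 458 myeloid cells in TG and 258 of 771 in WT. Levels are therefore read within clusters.

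Cxcl2 was lower in TG in the other myeloid clusters as well, although in clusters 24 and 14 the sign turned under alternatives. In cluster 15 it was 199 CPM (160 to 245) in TG and 1051 CPM (975 to 1131) in WT, a log2 ratio of -2.40 (-2.74 to -2.08), although the share of cells with a UMI was 29.2% and 34.2%. In that cluster Il1b had a ratio of -1.30 (-1.72 to -0.89), Il1rn of -0.73 (-1.27 to -0.21), Nlrp3 of -0.57 (-1.14 to -0.01) and Casp1 of 0.92 (0.37 to 1.49). Il1b was found in 26 of 89 TG and 47 of 158 WT cells there, so the shares were alike. Its upper quartile was 2.24 and 2.20 UMIs per 10000 of the cell, but the highest cell had 19.2 in TG and 74.4 in WT. The Il1rn ratio rests in TG on few cells, as given above. Neutrophil markers, which were high in cluster 5, were also lower in TG cluster 15: 9 of 10 were found in TG and 10 in WT, Ly6g being at 0 in TG, and they summed to 525 and 1081 CPM. Among them Cxcr2 was at 2.26 and 53 CPM and Retnlg at 45.2 and 240 CPM. Markers of NK cells summed to 355 and 63.3 CPM there and those of T cells to 735 and 383 CPM, both higher in TG, as Casp1 was. The part of these markers in the differences was not tested. Over the cells named Macro, where the WT sum includes cluster 27, Cxcl2 had a ratio of -2.97 (-3.29 to -2.67) and was the only 1 of the 7 genes with at least 10 UMIs past 2-fold, against 13.9% of all genes. In cluster 25, where 3 of the genes had at least 10 UMIs, 2 passed 2-fold against 29.4%. These were Cxcl2 with -1.35 (-1.88 to -0.81) and Il1b, which was higher in TG, from 9 UMIs and 1 UMI. In cluster 24, 2 of 6 passed against 29.6%. Il1b had -1.20 (-1.95 to -0.41), which turned to 0.57 without called doublets, and Pycard was higher in TG, from 21 and 2 UMIs. Cxcl2 there had -0.30 (-0.52 to -0.08), a sign that TMM scaling turned (0.06). In cluster 14, 3 of 5 passed against 15.5%, Il1b, Nlrp3 and Cxcl2, all lower in TG. Il1b passed mainly through the 3 WT cells given above, and Nlrp3 with 3 and 27 UMIs and an interval of -3.63 to 0.43, which includes 0. The Cxcl2 ratio of cluster 14 was -1.27 but turned to 0.54 without the 3 cells with most UMIs in each library.

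**Figure D4:**
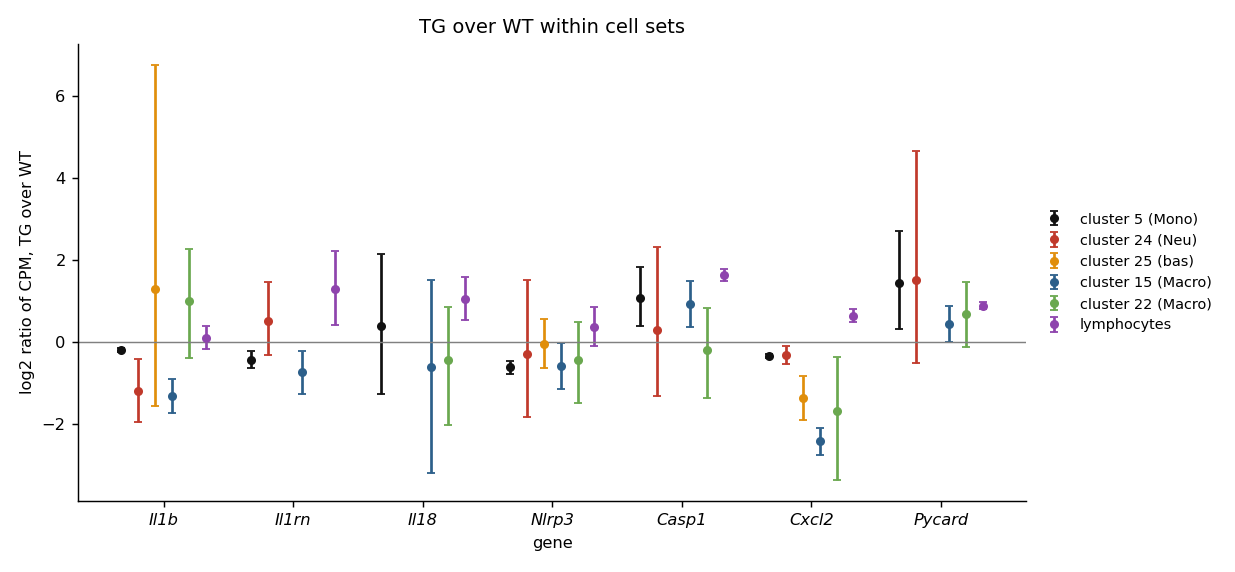
Log2 ratio of TG to WT CPM with 95% counting intervals in 5 myeloid clusters and in lymphocytes, for genes with at least 10 UMIs and none at 0 in either library; Il1a is left out. Cxcl2 lies below 0 in the 5 clusters (in cluster 24 at 0.06 with TMM factors) and above it in lymphocytes. Casp1 is highest in the pooled lymphocytes with 1.64.

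Casp1 differed most in lymphocytes. It was found in 25% of TG and 6.79% of WT lymphocytes, or 10.3% and 2.35% after thinning to 1000 UMIs, with a log2 ratio of 1.64 (1.5 to 1.79). In nkt cells it was 69.1 CPM in TG and 8.93 CPM in WT, a ratio of 2.95 (2.49 to 3.43). Markers of NK cells summed to 686 CPM in TG nkt cells and 1054 CPM in WT, and their part was not tested. In cd8aa cells, it was 119 CPM from 157 UMIs in TG against 2 UMIs in WT, a ratio of 5.03 (3.15 to 8.08). In these cells B-cell markers summed to 123 and 29.1 CPM and neutrophil markers to 384 and 167. T-cell markers summed to 5233 and 4851 CPM and NK markers to 2261 and 2411, and the part of these was not tested. For Casp1, mature B cells had 80.4 and 33.4 CPM (1.27, 0.95 to 1.59) and nk cells 116 and 57.9 CPM (1.00, 0.66 to 1.36). Immature B cells had 62.2 and 56 CPM (0.15, -0.36 to 0.67), an interval that includes 0. Cells named nk are not alike in the 2 libraries: markers of T cells summed to 3318 CPM in TG and 910.4 in WT, and markers of NK cells to 2891 and 4093 CPM, and the part of this in the nk ratios was not tested. Casp1, Il18 and Il1rn were the 3 of 7 genes at least 2-fold higher in TG lymphocytes, against 6.88% of all genes. For Il1rn this rests on 36 and 17 UMIs, at 2.18 and 0.89 CPM, with intervals that overlap those of mature B cells (1.49 and 0.557 CPM from 5 and 2 UMIs). For Il18, immature B cells, 193 of 4189 lymphocytes in TG and 202 of 6511 in WT, held 63 of the 92 UMIs in TG and 27 of 51 in WT, and within them the ratio was 0.96 (0.29 to 1.67), short of 2-fold. Cxcl2 in lymphocytes, 43.5 CPM in TG and 27.6 in WT, was close to its level in mature B cells, 42.9 and 28.7 CPM. WT immature B cells had 49.2 CPM (36.5 to 64.8) and WT dgT cells 62.1 CPM (42.8 to 87.2), of which 3 cells held 84% and 66.7% of the UMIs.

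Pycard was higher in TG cells named nk, whose marker levels differ as given above, with 278 CPM (635 UMIs) against 111 CPM (179 UMIs), a log2 ratio of 1.32 (1.08 to 1.57), and in cd8ab cells with 260 against 156 CPM, a ratio of 0.74 (0.59 to 0.89). Markers of NK cells summed to 627 and 326 CPM in cd8ab cells, and their part in that ratio was not tested. In cd8aa cells Pycard was at 105 and 63.6 CPM from 139 and 35 UMIs, a ratio of 0.72 (0.18 to 1.30). In immature B cells it was lower, 58.9 against 93.4 CPM (-0.66, -1.13 to -0.21). The ratio was 0.36 (0.07 to 0.63) in nkt cells, 0.30 (0.02 to 0.58) in cd4 cells, 0.26 (-0.10 to 0.63) in mature B cells and -0.12 (-1.49 to 1.00) in dgT cells, the intervals of the last pair including 0. The ratio over all lymphocytes, 0.89 (0.80 to 0.98), pools types whose shares differ, such as nkt with 446 of 4189 cells in TG and 2232 of 6511 in WT. Il1b in lymphocytes differed by 0.12 (-0.16 to 0.40), an interval that includes 0.

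**Figure D5:**
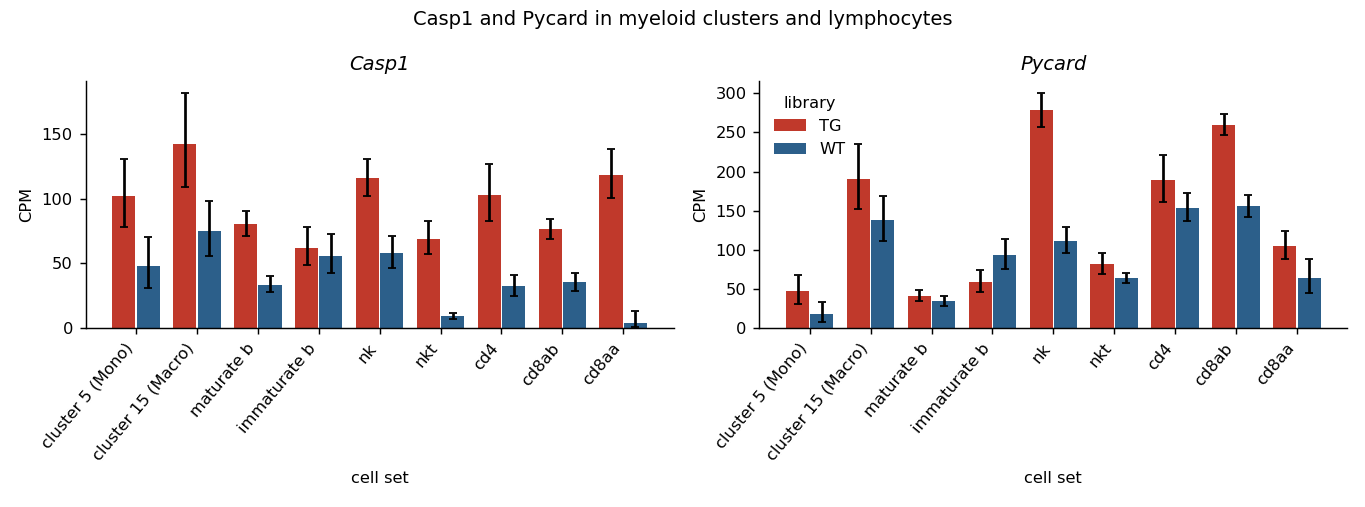
CPM of Casp1 (left) and Pycard (right) in 2 myeloid clusters and 7 lymphocyte types; bars are the TG (red) and WT (blue) libraries with 95% Poisson intervals. Casp1 is higher in TG in each type, but the intervals of immature B cells overlap. Of the sets shown, Pycard is highest in TG nk cells with 278 CPM, but the TG cells named other, not shown, had 422 CPM.

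Other genes of the pathway were read from lists, also made with earlier results of these data known, with the 2-fold backgrounds given above. Of 14 genes of IL-1 and IL-18 reception, 5 were 2-fold higher and 2 were 2-fold lower in TG myeloid cells, and 3 and 3 in WT. Il1r2, the decoy receptor of IL-1, was at 1078 and 1594 CPM in cluster 5 and at 383 and 446 CPM in cluster 24, whereas Il1r1, the signalling receptor, had no UMI in cluster 5 of either library. Il1rap, the shared receptor chain, was at 81.9 and 138 CPM in cluster 5. Of 5 names listed for other IL-1 family cytokines, only Il1f9, which encodes IL-36γ, was found, with 804 and 894 CPM in cluster 5. Names of the family outside that list were not looked up. Il18r1 was at 560 and 439 CPM and Il1rl1, the receptor of IL-33, at 242 and 301 CPM in cluster 25.

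Among 12 measured sensors and regulators of inflammasomes, 5 were 2-fold higher and 1 lower in TG myeloid cells and 6 and 1 in WT. Mefv, which encodes pyrin, had a log2 ratio of myeloid cells to lymphocytes of 6.30 in both libraries, and Nlrp12 of 6.02 and 5.53. P2rx7, a receptor for extracellular ATP, was the gene 2-fold lower, with -2.07 in TG and -1.79 in WT. Of 5 other caspases and pore genes, 3 were 2-fold higher in each library. Gsdme had ratios of 5.96 and 4.71 and Ninj1, which acts in membrane rupture, of 2.46 and 2.53. Casp4, which encodes caspase-11, was at 174 and 70.8 CPM in cluster 5, and Gsdmd, the pore that caspase-1 opens, at 102 and 80.4 CPM.

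Of 13 genes of priming and the CXCR2 axis, 12 were 2-fold higher in myeloid cells of either library. Cxcr2 had a ratio of 8.65 and 7.48, Cd14 of 6.86 and 7.59, and Tnfaip3, an inhibitor of NF-κB, the lowest with 0.62 and -0.20. Of 2 further genes of this list, chosen after their values were seen, Cxcl1 is given above with cluster 27. The other, Il6, was at 769 and 717 CPM in cluster 25 and at 0 and 1.91 CPM in cluster 5. It was also found in WT clusters 15 and 27.

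The genes whose levels were most like those of each member were ranked by Pearson correlation of log2(CPM + 1) over 25 profiles of a cell type in a library, among 10804 genes. These profiles share 2 libraries and many cell types, so the values are descriptions. Il1b was closest to Pla2g7 (0.93), Tnfaip2 (0.92) and Cxcl2 (0.91), and Cxcl2 to Clec4d (0.95), C5ar1 (0.95) and Msrb1 (0.95). Il1rn was closest to Msrb1 (0.95), Nadk (0.95) and Tnfaip2 (0.94), and Nlrp3 to Taldo1 (0.94), Hcar2 (0.94) and Kcnj2 (0.93). Il18 was closest to Slc7a7 (0.86), B4galt6 (0.82) and Atf3 (0.82). Casp1 had looser neighbours, Casp4 (0.66), Cx3cr1 (0.65) and Slc35f6 (0.64), and Pycard was closest to Ostc (0.87), Tmem258 (0.84) and Rps27l (0.83). Il1b and Pycard had a correlation of -0.41. Il1a had too few UMIs to be ranked.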

How the data were processed

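CD45+ liver cells were captured with BD Rhapsody. The deposited values are raw counts per gene and cell. Reads had been mapped to mm10 (submitters' processing notes) with STAR by the authors, who filtered cells and genes, removed the batch by CCA in Seurat and clustered the cells; their names and cluster numbers were used. The joint table holds the named TG cells of one library and the named WT cells of the other, and for 7 members it has the same UMIs as the library files. Il1a in TG is listed at 0 in it and was read from the library file.

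UMIs were summed per cell set and library and divided by the set's total (CPM), with exact Poisson intervals. Ratios have exact conditional binomial intervals at 95%, shares have exact Clopper-Pearson intervals, and a count of 0 allows 3 counts. A ratio was called past 2-fold (log2 ratio 1) for genes with at least 10 UMIs over both profiles. A gene at 0 in either profile counted as past 2-fold. This includes genes listed at 0 in all TG cells where WT had enough UMIs, and how far they raise the TG to WT shares was not tested. In medians, a 0 was taken as 0.5 UMIs. Intervals cover counting error only. No p-value was computed, since each genotype has 1 library. The genes named are the 8 members, the listed pathway genes at the ends of their list's order or with a role beside a member, and the 3 genes most like each member among genes with at least 100 UMIs. Members, lists and markers were chosen with earlier results of these data known. All cells were kept; doublets called with Scrublet (scanpy 1.11.5, expected rate 5%) were 0.839% of TG and 3.31% of WT cells and were left out as an alternative. TMM factors came from edgeR 4.0.16. The ratio script was tested on simulated data.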

Additional observations from a re-analysis of the deposited data

Results flagged for a closer look

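Cells of both library files that carry no genotype name, 5379 in the TG library and 16829 in the WT library, held some members above the level of the named WT cells and others below it. Il1b was at 343 CPM in the unnamed cells of the TG library and 360 CPM in those of the WT library, against 251 CPM in named WT and 291 CPM in named TG cells. Casp1 was at 107 and 81.3 CPM, against 31.9 CPM in named WT and 85.2 CPM in named TG cells. Pycard was at 145 and 127 CPM, against 94.6 CPM in named WT cells, but named TG cells had 163 CPM, more than the unnamed cells of their own library. In the unnamed cells of the WT library, Il1rn was at 27.5 CPM and Cxcl2 at 580 CPM, against 23.8 and 495 CPM in named WT cells. The others were not higher: Nlrp3 was at 45.1 and 44.9 CPM against 48.6, Il18 at 3.66 and 2.36 against 4.41, Il1a at 0.043 and 0.37 against 0.72, Cxcl2 in the TG library at 448 against 495, and Il1rn there at 25.4 against 23.8, with overlapping intervals. Of neutrophil markers, S100a8 was at 1215 and 2238 CPM, against 475 in named WT and 1927 in named TG cells, and Ngp at 270.1 and 1581 CPM, against 187 and 760.1. For both markers the unnamed cells of the TG library were lower than its named cells and the unnamed cells of the WT library higher than its named cells. Markers of other types shifted too. In unnamed against named cells of the WT library, Mcpt8 was at 107 and 6.75 CPM, Cd79a at 245 and 831 and Csf1r at 52.1 and 35.7. In the TG library they were at 13.6 and 31.7, 970 and 1188, and 144 and 45.3 CPM. The part of these markers in the values was not tested. The genotype of single unnamed cells is not known here, and these cells entered no comparison.

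For Cxcl2 the TG to WT difference had opposite signs in different cell sets, with intervals that exclude 0. The log2 ratio was -0.34 in cluster 5, -0.30 in cluster 24, -1.35 in cluster 25, -1.27 in cluster 14, -2.40 in cluster 15 and -1.67 in cluster 22, but 0.65 in lymphocytes, where its level was near that of mature B cells. The signs of clusters 24 and 14 turned under alternatives. For Il1rn it was -0.42 in cluster 5 and -0.73 in cluster 15 but 1.29 in lymphocytes, where it rests on 36 and 17 UMIs near the level of mature B cells. Whether these ratios differ between cell sets was not tested, since each genotype has 1 library.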

How the results depend on the processing

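No paired analysis was possible because each genotype has 1 library. The median myeloid to lymphocyte log2 ratio of the 8 genes stayed above 0 in all alternatives, between 3.18 and 6.48 in TG (the latter with the Il1a counts of the library file) and between 4.06 and 9.49 in WT. In WT it was 7.29 with each cell weighted equally, 7.18 without myeloid cells that held 2 or more UMIs of B, T or NK genes, 9.49 with the level of mature B cells subtracted and 4.06 without cluster 5, an alternative chosen after seeing the data, as were those without cluster 27 and without the cells named other. The median TG to WT log2 ratio lay between -0.35 and -0.18 in cluster 5, between -1.01 and -0.40 in the cells named Macro, between -1.86 and -0.46 in cluster 25, between -1.30 and 2.05 in cluster 14 and between -0.63 and 0.55 in cluster 24, the last pair with both signs. These medians include Il1a at the 0 that the TG table lists, and in the cells named Macro, where this moved the median most, it was -0.62 with it and -0.40 with the counts of the library files. In cluster 14 it was 2.05 without cells holding lineage UMIs, which removed 42 of 46 TG cells. The count of genes past 2-fold between TG and WT among cells named Macro was 2 with a minimum of 1 UMI and 4 at a threshold of 1.5-fold, against 1. The gene added by the lower minimum was Il1a, through its listed 0 in TG, where the library itself held 6 UMIs against 8 in WT. In cluster 25 the count was 5 with a minimum of 1 UMI, against 2. Of the single TG to WT ratios under alternatives, 253 stayed within their counting intervals, 21 left them, and 11 whose interval excluded 0 turned sign, none of these in cluster 5 or lymphocytes. Il1b in cells named Macro was 1.00 within cluster 22, and Casp1 there -0.19. Il1b in cluster 24 was 0.57 without called doublets and 2.64 without cells holding lineage UMIs. Cxcl2 in cluster 24 was 0.036 without the latter, 0.022 without the 3 cells with most UMIs and 0.057 with TMM factors. Cxcl2 in cluster 14 was 0.55 without called doublets, 1.22 without cells holding lineage UMIs and 0.54 without the 3 cells with most UMIs. Pycard in cells named Macro was -0.092 without cells holding lineage UMIs. The cause was not tested. Clusters 24 and 25 hold 17 and 16 WT cells, which limits what they can show.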
